A study of Mus musculus with 57 samples.

Results

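The 5S-like ribosomal RNA rows are short ribosomal RNA genes and copies whose sequence resembles the 5S RNA of the large ribosomal subunit. They were taken from a table of expression values for mouse oocytes and preimplantation embryos by a rule: a row annotated as rRNA, mitochondrial rRNA left out, with at least 1 FPKM (fragment counts scaled by transcript length and by the mapped fragments of the library) in at least 3 of the 43 columns. The rule kept 34 of the 354 rRNA rows, in a table of 59119 rows. The 34 rows were thus chosen by their own FPKM in these columns, and those levels are given as a description and not tested. Of the other 320 rRNA rows, 155 were above 0 somewhere and 165 were listed at 0 in every column.

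Total RNA was sequenced in 57 samples of 18 groups, which the table holds in 43 columns. The stage series was of wild-type C57BL/6 mice, from MII (the mature oocyte) and Zygote over E2-cell and L2-cell to 4-cell, then 8-cell, then Morula, and last Blastocyst, with 2 columns a group. Wild-type BDF1 embryos were read at 14, 17 and 20 hours after fertilization, again with 2 columns a group. A further BDF1 experiment knocked down the long noncoding RNA LncR-3363 with an antisense oligonucleotide (ASO, 20 uM), as KD-1cell (4 columns) and KD-2cell (1 column), beside wild-type Ctrl (4 columns). The last BDF1 experiment, labelled with an age of 6 to 8 weeks, had MT2Mm ko embryos, injected with guide RNA (150 ng/uL) and Cas9 mRNA (100 ng/uL), and wild-type ctrl embryos, at Late1c and Early2c, with 3 columns a group. MT2Mm is the long terminal repeat of a mouse endogenous retrovirus. The injections were made into MII oocytes, 5 to 10 pL each, and no injection is listed for the controls. Stage libraries used 150 to 200 embryos each and are pools, and in such bulk samples fewer cells of a type and less RNA per cell cannot be told apart. Nothing in the labels says that replicates came from separate matings, so the p-values measure the spread between these columns.

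5S RNA is made from a tandem array of short genes by RNA polymerase III, with transcription factor TFIIIA binding inside the gene. It joins the ribosomal proteins Rpl5 and Rpl11 in the 5S RNP, which is docked onto the growing large subunit, while 18S, 5.8S and 28S RNA come from the 45S precursor made by RNA polymerase I. The oocyte is known for storing ribosomes that serve the embryo until its own rRNA synthesis begins.

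The annotated 5S gene Rn5s (chr8:123598158-123598276, minus strand, GRCm38) is 119 bases long and lies in a cluster of 51 rRNA rows at chr8:123538786-123623745, which held 18 of the 34 rows. The other 16 were spread over the genome, so that the rows came from 12 chromosomes in all. Of the 354 rows, 32 carry the Rn5s sequence letter for letter, all of them in the cluster, and not 1 of these reached the rule: 23 were above 0 and the highest value of any was 0.232 FPKM. All 21 rows that differ from Rn5s at 1 to 5 positions were kept, with values up to 1334 FPKM. With 6 to 15 differences 4 of 23 rows were kept, and with more 8 of 277, among them the row with the highest value of all.

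The leading cluster sequence differs from Rn5s by a single substitution and is carried by 4 rows, n-R5s118, n-R5s130, n-R5s106 and Gm24312. A different single substitution is shared by n-R5s112, n-R5s120 and n-R5s125. n-R5s102 has 3 substitutions, n-R5s101 and n-R5s129 add 1 to these, and n-R5s114, n-R5s119 and n-R5s131 add 1 more. Gm23647 and Gm24089 lack 10 bases and have no substitution. n-R5s194, on chromosome 3, has 5 substitutions. Rows of the same sequence cannot be told apart by reads that lie inside them, so such rows are not independent.

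A set of 29 rows had 10 or fewer substitutions after global alignment to Rn5s and is called 5S-like below. The most abundant of these was n-R5s193 (ENSMUSG00000064798.1, chr4:149817732-149817840, plus strand, 109 bases), which shares its first 90 bases with Rn5s, first differs at base 91, and lies in no annotated protein-coding gene. A miRNA row of 60 bases, Gm47301, is annotated inside it on the same strand, over its bases 33 to 92. Gm26381, in an intron of Lsamp, is a 5S sequence that ends after 92 bases and likewise contains a miRNA row, Gm47276. Inside n-R5s64 lies a further miRNA row, Gm47285. The other 4 short rows (Gm25966, Gm24009, Gm23740 and n-R5s192) were diverged, at 58.2% to 66.7% identity to Rn5s.

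The label does not hold for the remaining row, CT010467.1 (ENSMUSG00000106106.2, chr17:39846353-39848827, minus strand). Its transcript is 1849 bases long, and it is the only rRNA row over 400 bases. Its gene span overlaps AY036118 on the same strand and all 1831 bases of Gm42418 on the opposite strand, both known as rows of 45S rDNA repeat sequence. CT010467.1 has a transcript whose complement holds 67.1% of the 50-base stretches of Gm42418. Its transcript begins with the 37 bases below, shown because their reverse complement is known as the 3′ end of 18S RNA. The row is therefore described apart from the 5S-like rows.
CT010467.1: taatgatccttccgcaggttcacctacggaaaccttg

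The 28 5S-like rows other than n-R5s193 were close to 0 in the 22 stage and hour columns and high in the 21 LncR-3363 and MT2Mm columns. Their summed FPKM ran from 0 to 10.2 (median 0.834) in the former and from 1566 to 5931 (median 2868) in the latter. In 25 of the 28 rows the lowest value of the 21 columns was above the highest of the 22. The highest single value in a stage or hour column was 6.06 FPKM, that of n-R5s194 in E2-cell replicate 2. All 34 rows together took 0.00241% to 0.823% of a column's FPKM sum in the stage and hour columns, and 0.441% to 12.4% in the others. The LncR-3363 and MT2Mm columns differ from the rest in experiment. Part of them were injected, while no injection is listed for their controls. The sums of the controls were high too, at 2691 to 3049 in LncR-3363 Ctrl, 2115 to 2674 in Late1c ctrl and 4282 to 5931 in Early2c ctrl. The number of embryos is given for the stage libraries only. The labels name 2 library kits, TruSeq with removal of rRNA for the stages and SMARTer for small amounts. They do not say which kit the hour, LncR-3363 and MT2Mm samples had. Differences of experiment, and of kit if any, cannot be told apart from the level of 5S-like RNA. No stage or hour column is therefore compared with a column of the other 2 experiments below.

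**Figure D1:**
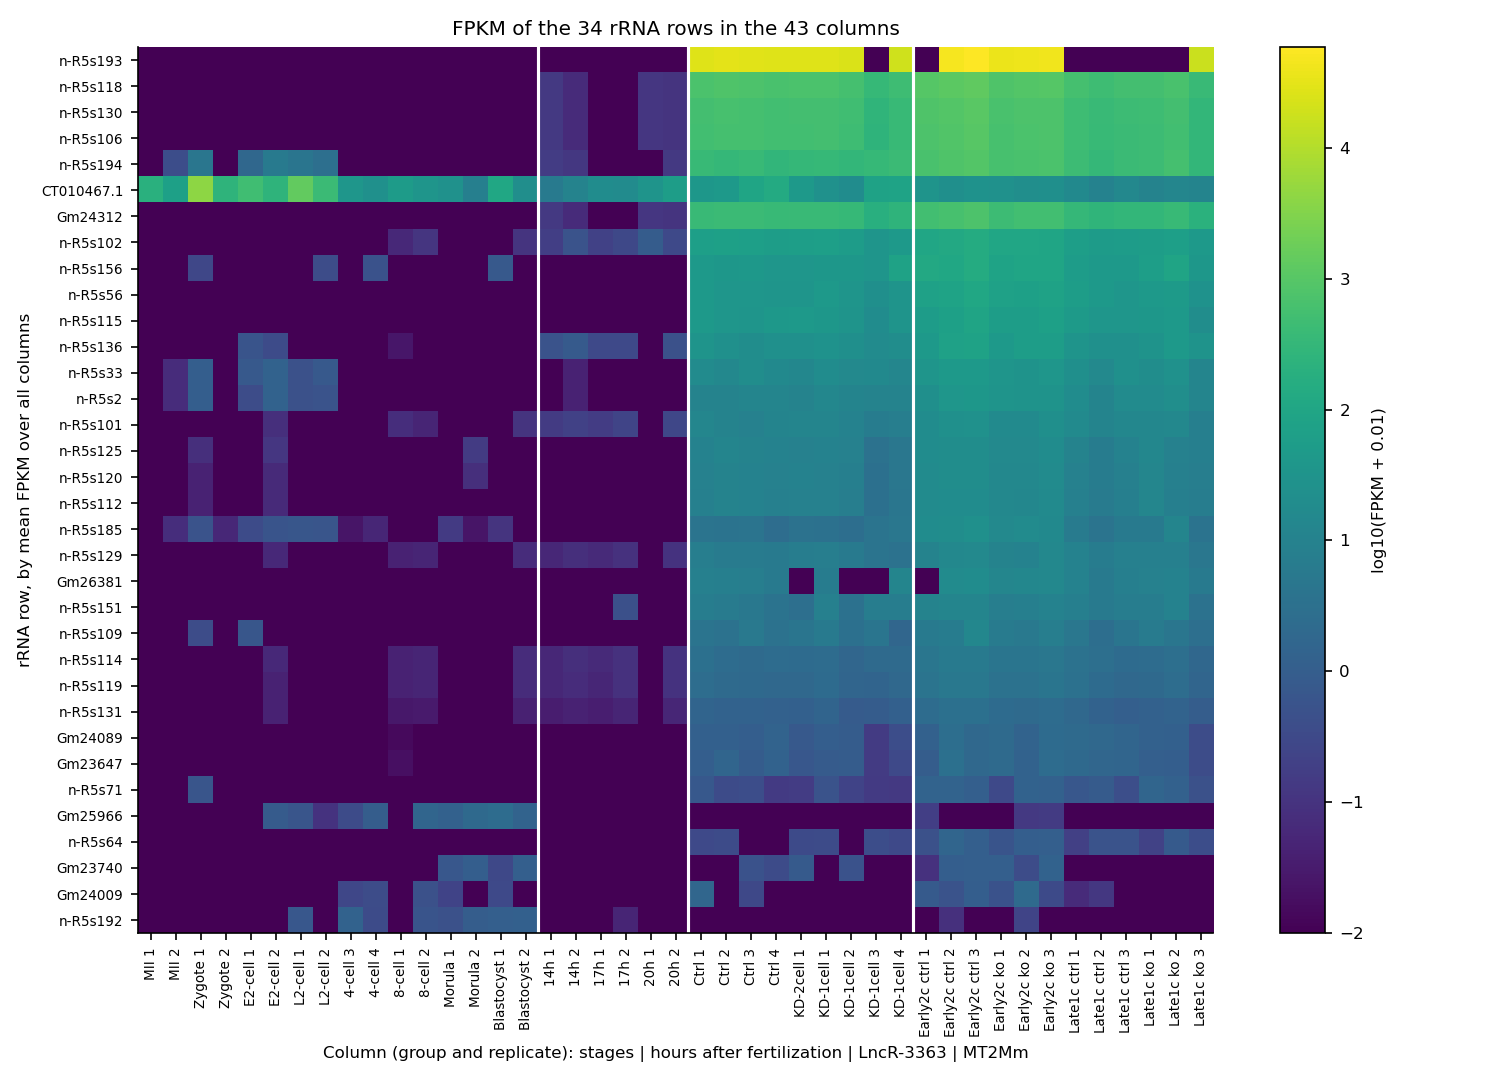
FPKM of the 34 rRNA rows (vertical axis, by mean over all columns) in the 43 columns (horizontal axis), as log10(FPKM + 0.01) by colour, with white lines between the stages, the hours, the LncR-3363 and the MT2Mm columns. The 5S-like rows are bright in the 21 columns on the right and dark in the 22 on the left, where CT010467.1 is the highest row.

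Of the 10 oocyte and embryo markers, Padi6 and Krt8 are given here, for the ends of the stage series. Padi6, an oocyte protein of the subcortical lattices, was at 1173 and 874 FPKM in MII and at 2.06 and 1.93 in Blastocyst. Krt8, a trophectoderm keratin, was at 644 and 596 in Blastocyst and no higher than 19.9 in any other column. Markers for the labels of the stages between, and of the other experiments, are not given. Of the 10 cumulus and granulosa markers, Cyp19a1 reached 8.05 FPKM and none of the others exceeded 1.48 in any column. No row was matched by name to LncR-3363, so the knockdown itself was not checked here. With FPKM alone, how deeply each column was sequenced is unknown. The FPKM sums of the columns lay between 311543 and 720832.

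n-R5s193 was either listed at 0 or the highest rRNA row. It was at 0 in all 22 stage and hour columns and in 7 of the 21 others, and between 16574 and 58791 FPKM in the remaining 14. In those 7 columns (KD-1cell replicate 3, Early2c ctrl replicate 1, the 3 Late1c ctrl columns and Late1c ko replicates 1 and 2) the miRNA row inside it, Gm47301, held 13246 to 47677 FPKM. Where n-R5s193 was above 0, Gm47301 was between 0.0473 and 41.8 FPKM. The high value thus sat in either the rRNA row or the miRNA row, and in no column in both.

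The sum of the pair was 12.8 to 16.3 times the summed FPKM of the 4 identical rows led by n-R5s118 in the 7 columns where Gm47301 held it, and 12.3 to 14.7 times in the 14 where n-R5s193 did. The ranges overlap. Since the rows differ in length, FPKM is not conserved when fragments pass from the longer row to the shorter, and what moved them was not tested. A change of n-R5s193 alone between groups follows how many columns fall on each side, and the sum of the pair is given beside it below. Changes of the sum carry the limit of row length wherever the groups differ in which row held the value.

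**Figure D2:**
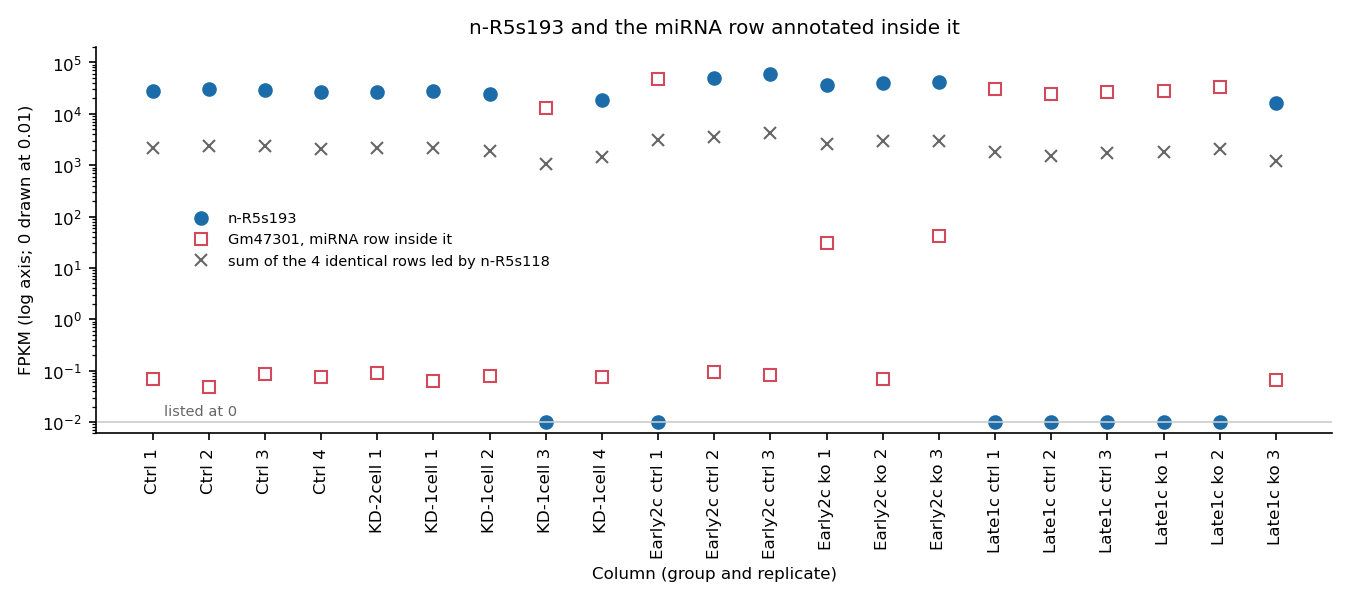
FPKM on a log axis of n-R5s193 (filled circles), of Gm47301 inside it (open squares) and of the sum of 4 rows of identical sequence (crosses) in the 21 LncR-3363 and MT2Mm columns, with values of 0 drawn at 0.01. In each column either the circle or the square is at 13246 FPKM or more, never both, and the crosses stay between 1033 and 4195.

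Rows of identical sequence still carried different values, in nearly fixed proportions. Of the summed FPKM of the 4 rows led by n-R5s118 in the 21 columns, n-R5s118 held 31.7% to 32.4%, n-R5s130 25.3% to 25.8%, n-R5s106 24.5% to 24.9% and Gm24312 17.4% to 18.0%. The order was the same in every one of these columns. The values of the 4 rows are best read as 1 quantity, and their tests are not independent.

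The stage columns carry name tags whose meaning is not given. The tags are b1 and b3 in MII, b2 and b1 in Zygote, b2 in E2-cell, b3 in L2-cell, and merge in every column from 4-cell on. The steps from E2-cell to L2-cell and from L2-cell to 4-cell therefore each coincide with a change of tag. Stage and tag cannot be told apart at these steps. The mitochondrial rRNA rows held 0.0975% and 0.119% of the column sum in the b1 columns of MII and Zygote, against 5.11% and 2.28% in the other MII and Zygote columns. They held 17.5% and 13.2% in L2-cell and 4.87% and 5.25% in 4-cell. The part of these shares in the results was not tested.

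In the stage series CT010467.1 was the leading row at every stage. The kit named for these libraries removes rRNA, and how much remained in each library is not given. It was at 199 and 70.8 FPKM in MII, 4201 and 251 in Zygote, 481 and 251 in E2-cell, and 1421 and 403 in L2-cell. From then on it was lower: 35.6 and 25.1 in 4-cell, 52.3 and 33.2 in 8-cell, 26.6 and 8.49 in Morula, and 106 and 22.4 in Blastocyst. Both 4-cell columns were below every earlier column. Zygote replicate 1 was the highest column of all, while Zygote replicate 2 was close to the lower E2-cell value.

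Of the 34 rows, 7 passed the filter of the stage fit (at least 1 FPKM in at least 2 of its 16 columns) and 27 did not. Between L2-cell and 4-cell 3 of the 7 fell, against 26.2% of all 19692 rows tested that were lower. CT010467.1 fell by 4.64 on the log2(FPKM + 0.5) scale (SE 1.20, limma adjusted p = 0.0067). n-R5s194, a 5S copy with 5 substitutions on chromosome 3, was at 4.34 and 2.87 FPKM in L2-cell and listed at 0 in both 4-cell columns (change -3.01, SE 0.82, limma adjusted p = 0.0087). n-R5s33, a 5S copy in an intron of Lrch3, was at 0.470 and 0.755 and then listed at 0 (change -1.14, SE 0.39, limma adjusted p = 0.0264). n-R5s194 and n-R5s33 passed the filter only through columns up to L2-cell, so their falls, and the count of 3, are a description. Of the 3 rows, only CT010467.1 was above 1 FPKM in both groups. Without L2-cell replicate 1 the adjusted p was 0.0632 for CT010467.1 and 0.056 for n-R5s194, and n-R5s192 was called higher (0.0455). The call of n-R5s33 was lost without L2-cell replicate 2 (0.145), 4-cell replicate 3 (0.0956) or 4-cell replicate 4 (0.0942). The median over the 7 rows was -1.0, beside 0.00 over all rows tested.

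The 5S copies that reached 1 FPKM in a stage column did so between Zygote and L2-cell. n-R5s194 was at 0 and 0.391 FPKM in MII, 4.47 and 0 in Zygote, 1.76 and 6.06 in E2-cell, and listed at 0 in every column from 4-cell on. n-R5s33 and n-R5s2 followed the same course at lower values, with at most 1.37 FPKM each. In Zygote 1 replicate was high and the other at 0 for all 3 rows, and no step before L2-cell passed the test. The high Zygote column had the tag b2, as both E2-cell columns did, and the Zygote column at 0 had b1. How far the tag enters this course was not tested. At Zygote against MII 0 of 7 rows passed (3.76% of all rows did, and 1 of the 7 was under an unadjusted p of 0.05). At E2-cell against Zygote and L2-cell against E2-cell it was 0 of 7 as well, with none under an unadjusted p of 0.05, where 44.1% and 68.7% of all rows passed.

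Of the 4 diverged rows, Gm25966 and Gm23740 had their highest stage values in Morula or Blastocyst and n-R5s192 had its highest in 4-cell, while Gm24009 stayed below 1 FPKM at every stage. Gm25966, in an intron of the proteasome subunit gene Psmd14, was at 0 and 1.59 FPKM in 8-cell, 1.22 and 2.09 in Morula, and 2.50 and 1.42 in Blastocyst, and at 0 in MII and Zygote. Its Pearson correlation with Psmd14 over the 16 stage columns was 0.659 (Spearman 0.8) on the log2 scale, as a description, and both share the library and the strand. n-R5s192, in an intron of Mtf1, was at 0.673 and 0 FPKM in L2-cell, 1.33 and 0.349 in 4-cell, 0 and 0.547 in 8-cell, 0.479 and 1.01 in Morula, and 1.12 and 1.15 in Blastocyst, and its correlation with its host was -0.656. Gm24009, in an intron of Srpk2, was listed at 0 up to L2-cell and was at most 0.46 FPKM after it. Gm23740 was listed at 0 in all 12 columns up to 8-cell and was at 0.673 and 1.03 in Morula and 0.289 and 1.12 in Blastocyst. This row passed the filter only through Morula and Blastocyst columns, so its step from 8-cell to Morula is a description. Of the other 6 rows 0 were called at that step, none under an unadjusted p of 0.05, where 8.39% of all rows rose. At 8-cell against 4-cell (35.0% of all rows called) and Blastocyst against Morula (38.7%) 0 of 7 rows passed, none of them under an unadjusted p of 0.05.

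**Figure D3:**
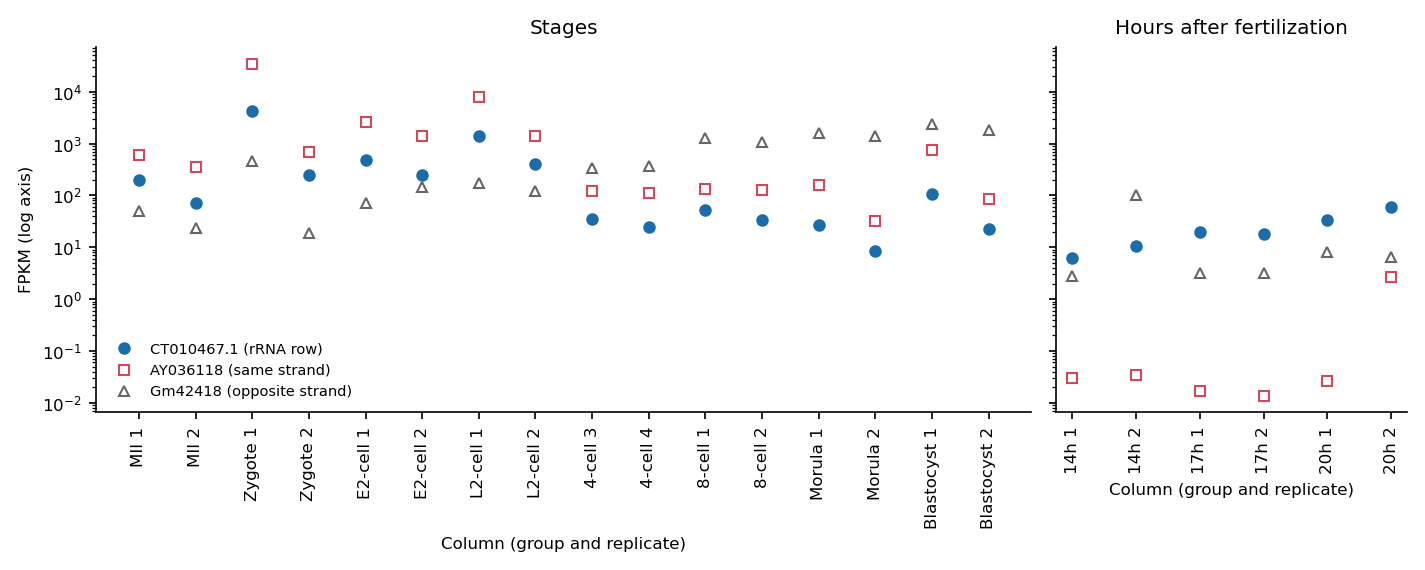
FPKM on a log axis of CT010467.1 (filled circles), AY036118 on the same strand (squares) and Gm42418 on the opposite strand (triangles) in the 16 stage and 6 hour columns. CT010467.1 lies between 70.8 and 4201 from MII to L2-cell and between 8.49 and 106 from 4-cell on, while Gm42418 is at 1063 or more from 8-cell on.

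In every stage column CT010467.1 made up most of the summed level of the 34 rows. In Morula replicate 2 it was 8.49 of a sum of 12.8 FPKM, with 4.13 from the diverged rows. The row most like the summed FPKM of the 34 rows, among 19683 others, was AY036118, with a Pearson correlation of 0.987 over the 16 columns. Its gene span shares 923 bases with that of CT010467.1, so fragments could count for either where both rows have an exon. Next came Hist1h3f at 0.907, Gm22710 at 0.893, and Nfe2l3 and Gm22767 at 0.881. Gm42418, on the other strand, had a correlation of -0.455 with CT010467.1 and was 18.7 to 464 FPKM up to L2-cell and 1063 to 2342 from 8-cell on. Gm26917, the other 45S repeat row, rose by 5.60 from E2-cell to L2-cell (SE 0.35, limma adjusted p = 1.06e-07) and by 2.57 from L2-cell to 4-cell (SE 0.35, limma adjusted p = 9.2e-05). Both steps coincide with a change of tag. Of the 3 rows of 45S repeat sequence in the table, AY036118 thus moved with CT010467.1 from L2-cell to 4-cell (change -4.85, SE 1.59, limma adjusted p = 0.0229) and Gm26917 the other way.

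The protein partners of 5S RNA changed in both directions among the 2-cell and 4-cell stages. Many rows of the table changed at these steps, and the tag of the columns changed too. Of 9 genes of the 5S RNP and its assembly, 5 rose and 1 fell from E2-cell to L2-cell, where 31.1% of all rows rose and 37.6% fell (median change 2.03, beside -0.10 over all rows). Rrs1 and Rpf2, which load the 5S RNP onto the pre-ribosome, rose by 3.71 (SE 0.12, limma adjusted p = 8.35e-10) and 3.03 (SE 0.14, limma adjusted p = 9.77e-09). Heatr3, an import factor for Rpl5, rose by 2.99 (SE 0.12, limma adjusted p = 3.04e-09). From L2-cell to 4-cell 5 rose and 1 fell again, where 30.2% of all rows rose and 26.2% fell (median 0.59, beside 0.00), with Rpl5 itself up by 2.03 (SE 0.13, limma adjusted p = 4.55e-07). In the same 2 steps 8 and 4 of 11 genes for the polymerase III factors TFIIIC, TFIIIB and Maf1 rose, as did 8 and 8 of 9 polymerase I initiation genes and 9 and 8 of 12 genes of 5.8S end processing. In these 3 lists and 2 steps 1 gene was called lower, of 5.8S end processing at the first.

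Of the other RNAs made by polymerase III, 7 of 10 rows were lower and 0 higher from L2-cell to 4-cell (median -2.42), where 26.2% of all rows were lower. The vault RNA Vaultrc5 changed by -7.28 (SE 0.40, limma adjusted p = 2.26e-07), and the Y RNAs Rny3 and Rny1 by -4.72 (SE 0.51, limma adjusted p = 1.9e-05) and -4.01 (SE 0.41, limma adjusted p = 1.26e-05). At 8-cell against 4-cell 7 of the 10 rows were higher and 0 lower (median 1.45), where 13.4% of all rows were higher, and no 5S-like row was called. At the other stage steps the median of the 10 rows was 0.78 from MII to Zygote, -0.01 from Zygote to E2-cell and 0.87 from E2-cell to L2-cell. It was -0.33 from 8-cell to Morula and -0.04 from Morula to Blastocyst. The medians over all rows at these steps lay between -0.10 and 0.00. The 2 mitochondrial rRNA rows had 1 call over the 7 stage steps, a rise of mt-Rnr2 from Zygote to E2-cell (4.30, SE 1.57, limma adjusted p = 0.045). A scaling to the protein-coding sum moved the median over all rows by -0.39 at 4-cell against L2-cell.

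In the hour series only CT010467.1 passed the filter, and it was higher at each later hour. It was at 6.21 and 10.7 FPKM at 14 hours, 19.6 and 18.3 at 17 hours, and 32.8 and 58.7 at 20 hours. The change was 1.17 from 14 to 17 hours (SE 0.32, limma adjusted p = 0.0321), where 20.5% of all 12834 rows rose, and 1.19 from 17 to 20 hours (SE 0.32, limma adjusted p = 0.0481), where 5.13% rose. From 14 to 20 hours it was 2.36 (SE 0.32, limma adjusted p = 0.00243), where 16.2% rose. AY036118 did not follow it here, at 0.0137 to 0.0351 FPKM in 5 of the 6 columns and 2.63 in 20h replicate 2. With 1 column of a group left out the count called fell to 0 for 3 of the 4 columns at either neighbouring step, and stayed at 1 for 14 to 20 hours. The 17-hour columns carry the name tag cat and the others merge, so both steps of 17 hours coincide with a change of tag and cannot be told apart from it, while 14 and 20 hours share a tag.

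The 5S-like rows stayed low over these hours. Their sum without n-R5s193 was 1.64 and 2.18 FPKM at 14 hours, 0.826 and 1.53 at 17 hours, and 1.39 and 1.82 at 20 hours. The 20-hour columns overlapped both earlier groups, and the 14-hour columns lay above those of 17 hours. Gm47301 was at 7.67 and 6.77, 1.34 and 0.330, and 4.10 and 2.35 FPKM. Its step down from 14 to 17 hours (change -2.64, SE 0.39, limma adjusted p = 0.0041) and its step up to 20 hours (change 1.55, SE 0.39, limma adjusted p = 0.0406) were called, while n-R5s193 was listed at 0 throughout. Of the other polymerase III rows 5 of 9 rose from 14 to 17 hours, where 20.5% of all rows rose. From 17 to 20 hours 5 rose and 1 fell, where 5.13% of all rows rose. Rmrp, the RNA of RNase MRP, was up by 2.42 at the second step (SE 0.12, limma adjusted p = 0.000478). Over the same 2 steps the median change of the 9 genes of the 5S RNP list was -0.08 and -0.07, beside 0.05 and -0.07 over all rows.

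In the MT2Mm experiment the 5S-like rows were higher at Early2c than at Late1c in the control embryos. The summed FPKM of the 28 rows was 2674, 2115 and 2420 in Late1c ctrl and 4282, 5031 and 5931 in Early2c ctrl. n-R5s118 was at 585, 478 and 548 FPKM and then at 961, 1128 and 1334. In both the lowest Early2c column was above the highest Late1c column. Of the 34 rows, 31 passed the filter of this fit (at least 1 FPKM in at least 3 of 12 columns), 27 rose and 0 fell, where 33.5% of all 13180 rows rose and 45.7% fell. In 26 the 2 groups did not overlap with Early2c above, as in 33.5% of all rows. The median change was 1.0 over the 31 rows and -0.15 over all rows. Rows of identical sequence are counted singly here. With these summed, and the miRNA rows Gm47301 and Gm47276 added, 20 rows were called, all higher. Some low rows passed the filter through Early2c alone. Of the 27 rows with a mean of at least 1 FPKM in both groups 24 rose, with the same median of 1.0.

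n-R5s118 rose by 1.08 (SE 0.18, limma adjusted p = 0.00014), and n-R5s130, n-R5s106 and Gm24312, of the same sequence, by 1.09 each. n-R5s194 went from 440, 327 and 403 to 656, 796 and 895 FPKM, a change of 1.0 (SE 0.20, limma adjusted p = 0.000669). n-R5s102, at 62.2, 50.8 and 55.6 and then 99.9, 121 and 144, rose by 1.10 (SE 0.14, limma adjusted p = 1.3e-05). Cluster rows and copies on other chromosomes were thus both among the rows that rose.

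The largest rise beside that of n-R5s193 was in n-R5s185, a 5S copy that lies wholly in an exon of Tmem38b. It was at 6.43, 4.04 and 5.98 FPKM in Late1c ctrl and 19.9, 21.1 and 25.4 in Early2c ctrl, a change of 1.94 (SE 0.30, limma adjusted p = 8.46e-05). Tmem38b, an intracellular cation channel gene, was at 12.4, 10.9 and 12.0 and then at 13.9 FPKM or more, and fragments of either could count for the other. n-R5s156, a 105-base copy on chromosome 7, rose by 1.40 (SE 0.23, limma adjusted p = 0.000116). n-R5s193 was listed at 0 in all 3 Late1c ctrl columns and at 0, 48975 and 58791 FPKM in Early2c ctrl, and its fitted change of 11.14, which rests on the pseudocount, (SE 4.44, limma adjusted p = 0.0366) was lost in each fit that left out 1 of these 6 columns, Early2c replicate 1 excepted (adjusted p up to 0.141). The sum with Gm47301 was 29834, 24282 and 26891 and then 47677, 48975 and 58791, a change of 0.94 (SE 0.23, limma adjusted p = 0.00252). This sum lay in the shorter row Gm47301 in Late1c and in n-R5s193 in Early2c replicates 2 and 3, so the groups differ in row length too.

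4 rows were not called in this step. Gm23647 and Gm24089, the 2 rows that lack 10 bases, changed by 0.05 (95% interval -0.65 to 0.75) and -0.03 (95% interval -0.65 to 0.59), with limma adjusted p of 0.897 and 0.926. n-R5s71 changed by 0.66 (95% interval -0.07 to 1.39). Gm26381 was at 0 in Early2c ctrl replicate 1 and at 18.4 and 19.7 FPKM in the others. Its sum with Gm47276 rose by 1.08 (SE 0.24, limma adjusted p = 0.00151).

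**Figure D4:**
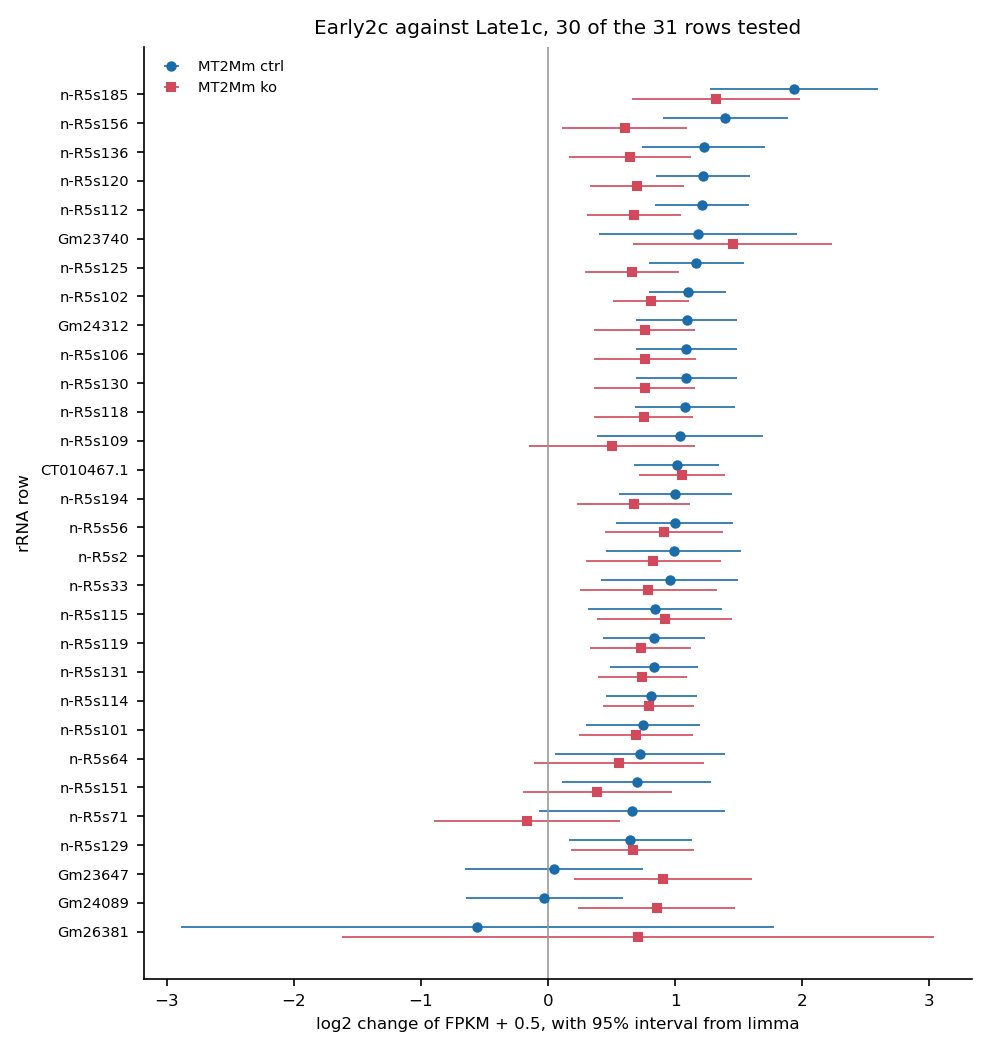
Change from Late1c to Early2c of log2(FPKM + 0.5) (horizontal axis) with its 95% interval from limma, for 30 of the 31 rRNA rows tested (vertical axis), in MT2Mm ctrl (circles) and ko (squares). n-R5s193, at 11.14 and 11.26, is not drawn, and most rows lie between 0.5 and 1.5 in ctrl.

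The knockout embryos made the same step. The summed FPKM of the 28 rows was 2574, 3124 and 1753 in Late1c ko and 3738, 4134 and 4314 in Early2c ko, again without overlap. Of the 31 rows 26 rose and 0 fell, where 33.9% of all rows rose and 36.6% fell, and in 25 the groups did not overlap with Early2c above (36.3% of all rows). The median was 0.75 (-0.02 over all rows). With identical rows summed and the miRNA rows added as above, 18 rows were called, all higher. Of the 26 rows with a mean of at least 1 FPKM in both groups 23 rose. n-R5s118 rose by 0.75 (SE 0.18, limma adjusted p = 0.00261) and n-R5s185 by 1.32 (SE 0.30, limma adjusted p = 0.00198). The sum of n-R5s193 and Gm47301 rose by 0.66 (SE 0.23, limma adjusted p = 0.0215). Gm23740 passed the filter only through Early2c columns and is given as values, at 0 in all 6 Late1c columns and at 1.11, 0.373 and 1.32 FPKM in Early2c ko.

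All 10 rows of other polymerase III RNAs rose as well, in ctrl (median 1.35) and in ko (median 0.92), where 33.5% and 33.9% of all rows rose. The largest changes in ctrl were those of the 2 Rmrp rows, at 2.23 (SE 0.22, limma adjusted p = 1.44e-06) and 2.12 (SE 0.26, limma adjusted p = 1.19e-05), and of Rpph1, the RNA of RNase P, at 1.73 (SE 0.13, limma adjusted p = 9.4e-08). Both mitochondrial rRNA rows rose, with mt-Rnr2 at 1.15 in ctrl (SE 0.14, limma adjusted p = 1.1e-05) and 1.02 in ko (SE 0.14, limma adjusted p = 4.58e-05). In the 45S repeat rows Gm26917 and Gm42418 rose in both, and CT010467.1 went from 15.9, 10.1 and 14.7 to 31.2, 23.4 and 28.1 FPKM in ctrl (change 1.01, SE 0.15, limma adjusted p = 6.87e-05).

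Of 8 genes of the 5S RNP list 6 fell and 1 rose in ctrl (median -0.83), where 45.7% of all rows fell and 33.5% rose. In ko 6 fell and 1 rose (median -0.87), where 36.6% of all rows fell. Ssb, the La protein that binds the 3′ ends of new polymerase III transcripts, fell by 2.78 in ctrl (SE 0.07, limma adjusted p = 8.48e-12). Rpf2 fell by 2.23 (SE 0.17, limma adjusted p = 1.22e-07) and Rpl11 by 1.76 (SE 0.10, limma adjusted p = 1.33e-08). In the list of TFIIIC, TFIIIB and Maf1 4 rose and 5 fell of 10 tested, among them Brf2, a subunit of the TFIIIB form used at other polymerase III promoters than that of 5S, at -2.47 (SE 0.06, limma adjusted p = 5.76e-12). Polymerase I initiation genes gave 2 higher and 3 lower of 7, and genes of 5.8S end processing 2 higher and 9 lower of 12.

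**Figure D5:**
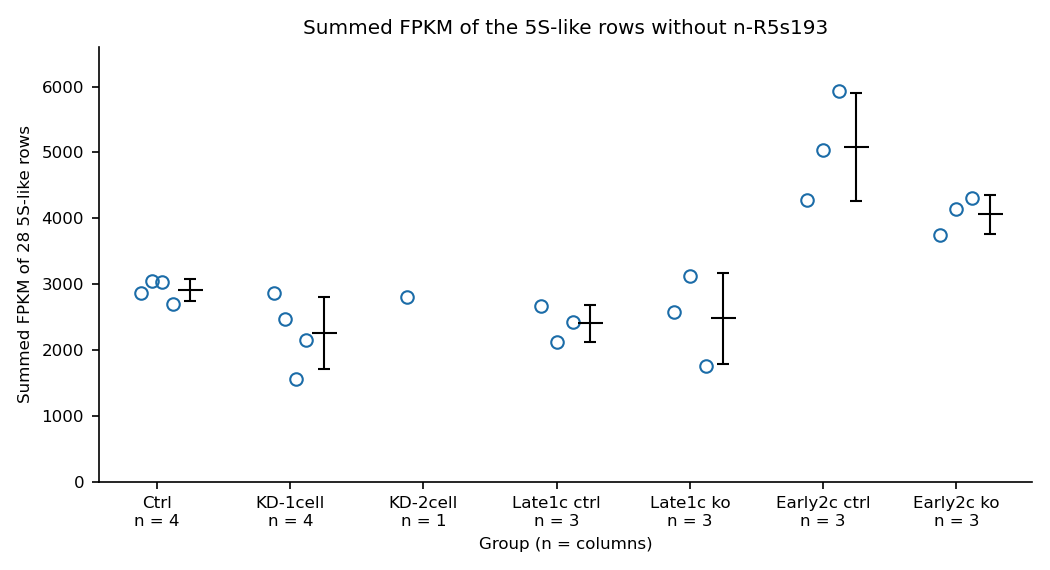
Summed FPKM of the 28 5S-like rows other than n-R5s193 (vertical axis) in the 7 groups of the LncR-3363 and MT2Mm experiments, with 1 open circle a column and bars for the mean and SD beside them where there is more than 1 column. The Early2c columns lie between 3738 and 5931, above the Late1c columns at 1753 to 3124.

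Between MT2Mm ko and ctrl no rRNA row was called at either stage. At Late1c 0 of 31 rows passed limma's test, where 0.114% of all rows did, and 2 of the 31 were under an unadjusted p of 0.05. These were Gm24089 and Gm23647, at 2.18, 1.98 and 1.65 FPKM in ctrl and 1.23, 1.15 and 0.371 in ko for the first, with a change of -0.84 (95% interval -1.46 to -0.22, limma adjusted p = 0.459). The median over the 31 rows was -0.01. n-R5s118, at 569, 673 and 390 FPKM in ko, changed by -0.01 (95% interval -0.40 to 0.38), and the groups overlapped.

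At Early2c 0 of 31 rows passed limma's test, where 49.0% of all rows did, and 0 were under an unadjusted p of 0.05. n-R5s118 was at 961, 1128 and 1334 FPKM in ctrl and 811, 923 and 954 in ko, a change of -0.34 (95% interval -0.73 to 0.05, limma adjusted p = 0.137). The ko columns all lay below those of ctrl in 10 of the 31 rows, as in 19.1% of all rows, and all above in 0 (37.4% of all rows). The median change was -0.27, beside 0.11 over all rows. The sum of n-R5s193 and Gm47301 was 37247, 39230 and 41929 FPKM in ko and changed by -0.39 (SE 0.23, limma adjusted p = 0.183). With columns scaled by the median of ratios, which moved the median of all rows by -0.13, 10 of the 31 rows were called lower. Without Early2c ctrl replicate 1, 2 were.

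Of the other polymerase III RNAs 7 of 10 rows were lower and 0 higher in Early2c ko (median -0.55), where 15.6% of all rows were lower and 33.4% higher. 1 Rmrp row changed by -1.54 (SE 0.22, limma adjusted p = 0.000138) and Rpph1 by -0.83 (SE 0.13, limma adjusted p = 0.000219). Of the 5S RNP list 3 of 8 genes were higher and 0 lower, a share near that of all rows, led by Ssb at 1.15 (SE 0.07, limma adjusted p = 2.97e-07), as did 5 of 10 genes of TFIIIC, TFIIIB and Maf1, led by Brf2 at 1.35 (SE 0.06, limma adjusted p = 4.69e-08). Polymerase I initiation genes gave 2 higher and 2 lower of 7, and 5.8S end processing 9 higher of 12. Gm26917 fell by 0.54 (SE 0.12, limma adjusted p = 0.00348), and the mitochondrial rRNA rows were not called. At Late1c 0 genes of any of these lists passed.

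The difference between the 2 knockout effects was tested directly and was called in 0 of 31 rows, where 37.3% of all rows were called and 3 of the 31 were under an unadjusted p of 0.05. For n-R5s118 it was -0.33 (95% interval -0.88 to 0.23, limma adjusted p = 0.34). The median was -0.17, beside 0.13 over all rows. Without Late1c ko replicate 3 9 rows were called, all lower, and with the median of ratios 4 were. In that replicate n-R5s118 was at 390 FPKM, the lowest of the 6 Late1c columns.

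In the LncR-3363 experiment the 5S-like rows were lower on average in KD-1cell than in Ctrl, and 0 of the 27 rows tested passed limma's test. Of all 11492 rows 43.7% passed, and 9 of the 27 were under an unadjusted p of 0.05. The summed FPKM of the 28 rows was 2868, 3049, 3036 and 2691 in Ctrl and 2870, 2464, 1566 and 2145 in KD-1cell, so that KD-1cell replicate 1 lay within the Ctrl range and the other 3 below it. The single KD-2cell column was at 2806, inside the Ctrl range, and entered no test. The labels KD-1cell and KD-2cell name a cell stage and Ctrl names none. A difference of stage between KD-1cell and Ctrl therefore cannot be told apart from the knockdown. The median change was -0.33 over the 27 rows and 0.12 over all rows. The columns did not overlap, with KD-1cell below, in 1 of the 27 rows (13.2% of all rows), and with KD-1cell above in 0 (28.6%).

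Every chromosome 8 cluster row that was tested had a change below 0 in this comparison. n-R5s118 was at 695, 782, 750 and 680 FPKM in Ctrl and 699, 608, 333 and 461 in KD-1cell, a change of -0.52 (95% interval -0.97 to -0.08, limma adjusted p = 0.0582). n-R5s120 was at 9.18, 10.9, 10.1 and 9.41 and then 9.56, 8.16, 3.24 and 4.68, a change of -0.70 (95% interval -1.31 to -0.08, limma adjusted p = 0.0653). In both rows KD-1cell replicate 1 was inside the Ctrl range and the other 3 columns were below it.

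Of the copies on other chromosomes, n-R5s194, n-R5s2, n-R5s185, n-R5s151 and n-R5s156 had changes above 0, from 0.02 to 0.21, and n-R5s33, n-R5s56, Gm26381 and n-R5s193 had changes below 0, at -0.12, -0.16, -1.89 and -4.17. None of these was called. Gm26381 summed with the miRNA row inside it, Gm47276, changed by -0.07 (SE 0.14, limma adjusted p = 0.739). The value of n-R5s156 includes KD-1cell replicate 4 at 80.3 FPKM, against 34.4 to 38.3 in the other 3, and without that column it was -0.07. n-R5s194 was at 359, 321, 375 and 294 FPKM in Ctrl and 339, 298, 335 and 407 in KD-1cell (change 0.03, 95% interval -0.22 to 0.27). n-R5s2, on the X chromosome, changed by 0.02 (95% interval -0.21 to 0.24). The difference between the cluster rows and these copies was not tested. n-R5s193 was listed at 0 in KD-1cell replicate 3 alone, and its sum with Gm47301 was 27890, 30337, 28829 and 27168 in Ctrl and 27974, 24380, 13246 and 18703 in KD-1cell (change -0.49, SE 0.22, limma adjusted p = 0.101).

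The count called in the knockdown depended on the columns and the scaling. It was 12, all lower, without KD-1cell replicate 1, 4 without replicate 2 and 1 without replicate 4. With the median of ratios it was 10 and with scaling to the protein-coding sum 7, all lower, and these scalings moved the median of all rows by -0.12 and -0.07. CT010467.1 split the columns by replicate number in both groups, at 37.8, 43.7, 98.0 and 134 FPKM in Ctrl and 26.0, 19.7, 81.6 and 86.6 in KD-1cell, and Gm42418 did so too, at 3074, 2836, 6262 and 8524 and then 2364, 2062, 5421 and 6270. The labels name no batch for replicates 1 and 2 against 3 and 4, and with the replicate number as a block 4 rows were called, all lower.

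The other lists moved in both directions in the knockdown, where 29.8% of all rows were higher and 13.9% lower. The limit on cell stage holds here too. Other polymerase III RNAs gave 1 higher and 3 lower of 10 (median -0.32), with the 2 Rmrp rows at -2.74 (SE 0.60, limma adjusted p = 0.00511) and -1.16 (SE 0.21, limma adjusted p = 0.00162). Genes of the 5S RNP gave 3 higher and 1 lower of 8 (median 0.19), with Ssb at 1.70 (SE 0.10, limma adjusted p = 1.4e-06) and Rpl5 at 0.95 (SE 0.09, limma adjusted p = 4.26e-05). TFIIIC, TFIIIB and Maf1 gave 1 higher and 3 lower of 8, polymerase I initiation 2 higher of 7, and 5.8S end processing 3 higher and 2 lower of 9. Both mitochondrial rRNA rows were lower, mt-Rnr2 at -0.55 (SE 0.13, limma adjusted p = 0.00753), and so was Gm26917 at -1.09 (SE 0.17, limma adjusted p = 0.00085).

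At the threshold of the rule the rows inside and outside were alike in level. By the third-highest of the 43 values, the value on which the rule turns, the 3 rows just inside were Gm24009 at 1.04, n-R5s64 at 1.08 and Gm23740 at 1.12 FPKM. The 3 just outside were Gm23071 at 0.976, n-R5s210 at 0.971 and Gm24786 at 0.961 FPKM. With at least 5 FPKM in 3 columns 23 rows would have been kept, and with at least 1 FPKM in any column 52.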

How the data were processed

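The values are FPKM in a table the authors deposited, from GRCm38, and per the submitters' processing notes the tools included cutadapt 1.18, HISAT2 2.1.0, StringTie 1.3.4d and Cuffdiff 2.2.1; their settings, and how fragments of repeated or overlapping rows were assigned, are not given in the sources used here. No read counts were used, so depth is unknown. Columns were matched to samples or groups by name: 20 name 1 sample and 23 a group. The knockdown columns carry another name and were matched to LncR-3363 because no other knockdown is labelled. Biotypes, positions and sequences came from GENCODE M21, and alignments were made with Biopython 1.88; the sequences of the 5S copies are not reported here. limma 3.58.1 was run on log2(FPKM + 0.5) (trended variance, two-sided, R 4.3.3), in 1 fit each for the stages, hours, LncR-3363 and MT2Mm, leaving out rows that did not reach 1 FPKM in as many columns as its smallest group has. Benjamini-Hochberg adjustment ran over all rows tested, and rows under 0.05 were called. There were 16 comparisons. The tests were tried on simulated data first.

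The members and gene lists were chosen with earlier results of these data known. Rows named were the 8 with the highest mean, the largest called changes of each comparison, those at the threshold, up to 3 genes a list and comparison, and the 5 most alike; others, such as Gm25966, n-R5s192, n-R5s120, n-R5s2, n-R5s71, Gm26381, Gm23647 and Gm24089, were chosen after their values were seen.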

Additional observations from a re-analysis of the deposited data

Results flagged for a closer look

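Of 68 groups of 4 columns tested for a column far from the others, 3 were marked, and chance marks about 1 group in 20. n-R5s156 was at 80.3 FPKM in KD-1cell replicate 4 and between 34.4 and 38.3 in the other 3 KD-1cell columns. Gm23740 was at 0.487 FPKM in KD-1cell replicate 2 and listed at 0 in the others. Gm24009 was at 1.75 FPKM in Ctrl replicate 1 and at 0.275 or 0 in the others.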

How the results depend on the processing

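The counts of rRNA rows called are 0 or 1 in most comparisons, so 1 row moves them. Without the filter on low values the count went from 0 to 1 for E2-cell against Zygote and for L2-cell against E2-cell, and from 1 to 0 for 17h against 14h and 20h against 17h. With a pseudocount of 0.1 it was 0 for 20h against 17h. For Morula against 8-cell it was 0 with either other scaling. With the median of ratios it went from 0 to 10 for the LncR-3363 knockdown, 10 for MT2Mm ko at Early2c and 4 for the difference of the knockout effects, all lower, and scaling to the protein-coding sum gave 7 for the knockdown. The replicate number as a block gave 4 in the knockdown and changed no other count by over 1.5 times. Correlations of same-numbered columns lay between -0.138 and 0.153, so the numbers were not taken to pair the columns. No paired analysis was possible because the 4-cell columns are numbered 3 and 4, for the comparisons with 4-cell. In an alternative chosen after seeing the data, identical rows were summed and the miRNA rows Gm47301 and Gm47276 added, but not Gm47285 inside n-R5s64. That gave 2 for each of 17h against 14h and 20h against 17h and 1 for the knockdown. For Early2c against Late1c it gave 20 in ctrl and 18 in ko. With 1 column left out in turn the counts were 0 to 4 for Zygote against MII, 0 to 3 for E2-cell against Zygote, 0 to 1 for L2-cell against E2-cell, Blastocyst against Morula, 17h against 14h and 20h against 17h, 2 to 2 for 4-cell against L2-cell, 1 to 2 for Morula against 8-cell, 0 to 12 for the knockdown, 0 to 2 for ko at Early2c, 23 to 29 and 21 to 28 for Early2c against Late1c in ctrl and ko, and 0 to 9 for the difference of the effects. The high counts came without Zygote replicate 2 (4), Zygote replicate 1 (3), KD-1cell replicate 1 (12) and Late1c ko replicate 3 (9). With 1 FPKM asked of any column 52 rows would be kept in place of 34. The members' share in Early2c ko was 9.71% of the column sum and 26.6% of the protein-coding sum. Scaling moved the median of all rows by up to -0.39 (4-cell against L2-cell). No called value changed sign under the alternatives run.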
